A study of Mus musculus with 7 samples.

Results

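The genes described here were expressed far lower in every *Mybpc2* knockout library than in any wild-type library of the same muscle. They were chosen by a gap: the smallest of the 4 wild-type log2 values minus the largest of the 3 knockout values had to be above 2, and the mean wild-type value had to be at least 2. Of 12239 genes in the table, 9704 reached that mean level and 77 of these met the gap (0.793%). *Mybpc2*, *Aldh16a1* and *Capn15*, which were among the 77, were set apart by name, which left 74 genes. *Jak3* was set apart too, but its gap of 1.88 did not meet the rule. Because these values chose the genes, their levels and differences are given as a description with no test.

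The libraries came from tibialis anterior (TA), a fast hindlimb muscle, of male FVBN mice aged 5 to 6 months. The wild-type (WT) animals carried no transgene named in the labels. In the knockout (C2-/-) animals a Neo cassette flanked by LoxP sites stands in for exons 2 to 22 of *Mybpc2*, the gene of fast myosin-binding protein C. There were 4 WT and 3 C2-/- libraries, each from polyadenylated RNA of whole muscle. Nothing in the titles says more on how the replicates were bred or processed together.

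Fast myosin-binding protein C lies in the thick filament of the sarcomere, where it binds myosin and actin and tunes cross-bridge cycling in fast fibres. A TA muscle is made mostly of fast glycolytic fibres, which rely on glycolysis, export lactate and hold large stores of calcium in the sarcoplasmic reticulum. Whole-muscle RNA also holds the transcripts of endothelial cells, fibroblasts, nerve, satellite cells and other cells, so that fewer cells of a type and less RNA per cell cannot be told apart.

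Values are log2 CPM, the reads of a gene scaled to a common library size, after TMM scaling, which adjusts library sizes for composition. Reads in the table numbered 14929214 to 15464499 in WT 1 to 3, 4683853 in WT 4 and 2613277 to 4917936 in the C2-/- libraries, so 3 reads stood at 0.195 to 1.12 CPM. *Mybpc2* itself was covered by at least 25665 reads per WT library, and by 6, 8 and 3 reads in C2-/- 1, 2 and 3, so each library carried the level of its label. The abundant fibre transcripts that define skeletal muscle, such as *Acta1* and *Ckm*, were high in all 7 libraries. By limma across all genes, 25% of the 12239 genes were lower in C2-/- and 20.2% were higher (adjusted p under 0.05 and a fold above 1.5). That balance turned with the scaling, with 2594 genes lower and 3040 higher when each library was centred on its median, 2760 and 2883 after quantile normalization, and 1014 and 1494 after a spline on GC content was removed from each library. The C2-/- values lay below every WT value in 26.7% of all genes and in 29.8% of the 9704 genes with a mean WT level of at least 2.

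The 74 genes covered a wide range of WT expression. Their mean WT level ran from 2.05 to 8.25 with a median of 3.99, against a median of 4.54 for the 9704 genes. It was under 3 in 19 genes, from 3 to 5 in 37 and at least 5 in 18. Their mean C2-/- level ran from -2.74 to 5.26 with a median of 0.44. The difference of means (C2-/- minus WT) lay between -4.87 and -2.34, with a median of -3.54 against -0.14 for all genes. The gap itself ran from 2.00 to 3.67 with a median of 2.22. The same rule turned round, with every C2-/- value more than 2 above every WT value and a mean C2-/- level of at least 2, was met by 23 genes.

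**Figure D1:**
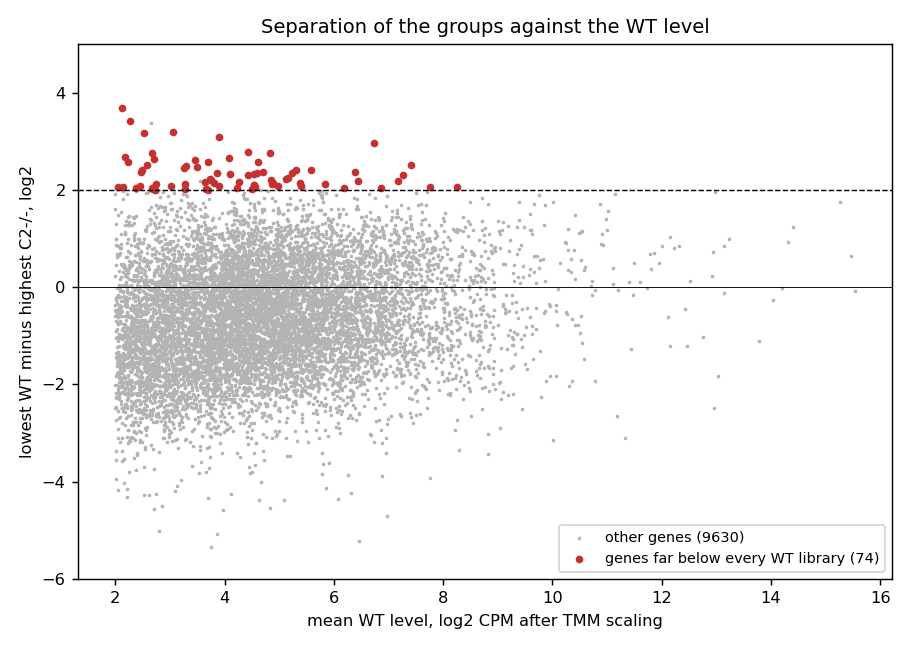
Gap between the groups (lowest WT minus highest C2-/- value, log2; vertical axis) against the mean WT level (log2 CPM after TMM scaling; horizontal axis) for 9704 genes, each point a gene. The 74 chosen genes (red) lie above the dashed line at 2 and reach a mean WT level of 8.25, while the most abundant muscle transcripts to the right are all grey. The genes set apart by name count among the grey ones, and *Mybpc2* lies above the range of the vertical axis.

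No sharp break separated these genes from the rest. The 4 members nearest to the threshold were *Zfp282* (gap 2.01), *Ubtd1* (2.01), *Abcb9* (2.01) and *Fance* (2.00). The 4 genes just outside were *Ccar2* (1.996), *Zdhhc8* (1.99), *Galnt16* (1.98) and *Scarb1* (1.98). *Galnt16* encodes an enzyme of the same family as the member *Wbscr17*.

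Within the WT group, WT 1 to 3 lay close together and WT 4 stood apart. The SD over WT 1 to 3 had a median of 0.11 over the 74 genes (0.12 over the 9704 genes), and with WT 4 it rose to 0.35 (0.29). Relative to the mean of WT 1 to 3, the median of the 74 genes was -0.53 in WT 4, where that of all genes was -0.19. WT 4 was the lowest WT library in 57 of the 74 genes, compared with 50.1% of the 9704 genes. It was above all other WT libraries in 8 genes.

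The C2-/- libraries agreed less closely. Relative to the mean of WT 1 to 3, the median of the 74 genes was -3.06 in C2-/- 1, -4.14 in C2-/- 2 and -3.38 in C2-/- 3. The SD over the 3 libraries had a median of 0.89 over the 74 genes, against 0.39 over the 9704 genes. The rule chose the 74 for low C2-/- values, and the 9704 genes were not matched to them in C2-/- level. C2-/- 2 was the lowest of the 3 libraries in 40 genes, C2-/- 3 in 25 and C2-/- 1 in 9. C2-/- 2 had 0 reads for 28 of the 74 genes, C2-/- 3 for 8 and C2-/- 1 for 5. A gene with 0 reads takes a value set by depth alone, which was -2.54, -2.42 and -3.27 in C2-/- 1, 2 and 3.

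**Figure D2:**
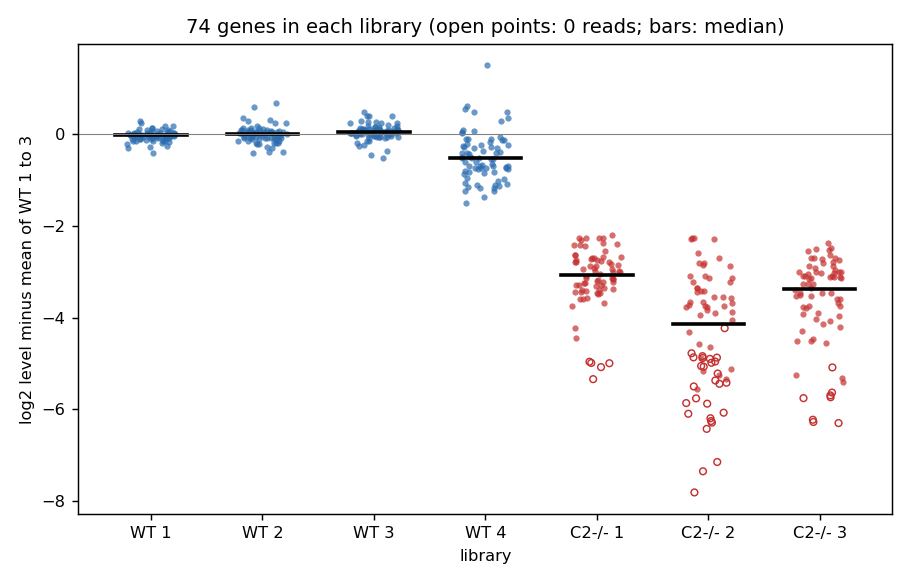
Level of each of the 74 genes in each library relative to its mean in WT 1 to 3 (log2; vertical axis), with a black bar at the median of each library. The bar stands at -0.53 in WT 4 and at -3.06, -4.14 and -3.38 in C2-/- 1 to 3, and open points mark the genes with 0 reads, which are most frequent in C2-/- 2.

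The reads behind these values were few in C2-/-. The median gene had 244.5, 256.5, 284 and 53 reads in WT 1 to 4 and 6, 2 and 8 reads in C2-/- 1 to 3. In 19 genes no C2-/- library had more than 3 reads, and in 15 genes every C2-/- library had 10 reads or more. The reads summed over C2-/- ran from 0 to 409 per gene. With reads summed over the libraries of a group and scaled by their summed library sizes, WT exceeded C2-/- by 5.74 to 54.9 times in the 73 genes with at least 1 C2-/- read, with a median of 11.9 times. The widest of these ratios rest on 1 or 2 reads. *Ccdc61* and *Grin3b*, with 1 C2-/- read each, had a ratio of 54.9 and an exact 95% counting interval of 9.77 to 2176. For *Slc16a3*, with 409 reads, the ratio was 7.91 and the interval 7.17 to 8.74. These intervals cover counting error only.

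**Figure D3:**
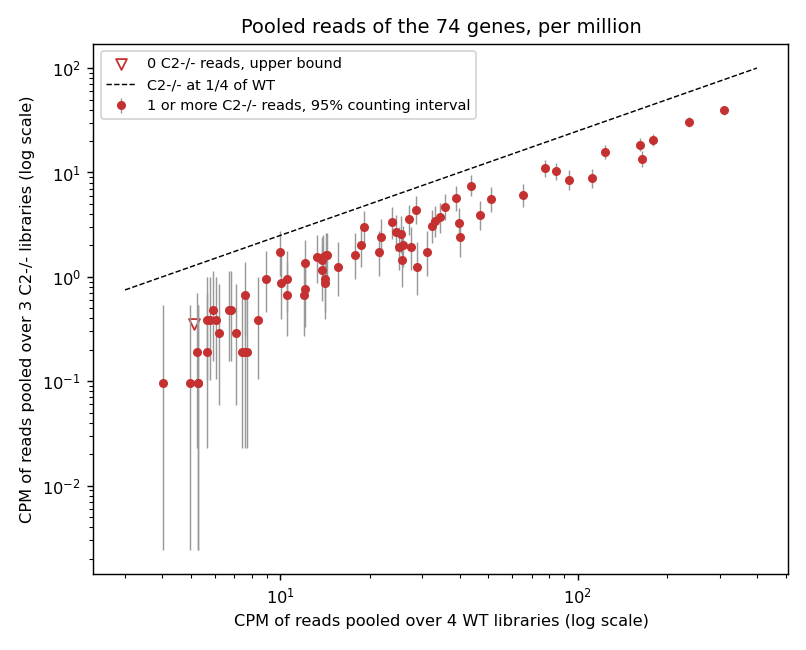
CPM of the reads pooled over the 3 C2-/- libraries (vertical axis) against CPM of the reads pooled over the 4 WT libraries (horizontal axis) for the 74 genes, each the summed reads scaled by the summed library sizes, both axes on a log scale. Bars are exact 95% intervals of counting error, the open triangle is the upper bound of the gene with 0 C2-/- reads (*Nfkbil1*), and every point lies below the dashed line at which C2-/- would be 1/4 of WT, a distance that the rule itself sets for single libraries.

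The transcripts of these genes were rich in G and C, which the rule did not use. Over 73 genes with a matched transcript (all but *Rn45s*), GC content had a median of 59.1% and ranged from 42.1% to 65.7%, against a median of 50.2% over 12175 genes in the table. It was above the all-gene median in 70 of the 73. When the genes with a mean WT level of at least 2 were split into 10 equal groups by GC content, the richest group (58.0% to 69.7%) held 41 of the 73, the next held 18 and the one after it 7. The 5 poorest groups held 3. These transcripts were also shorter, with a median of 2504 bases against 3154, and had a median of 8 exons against 9. The lowest value, 42.1%, was that of the antisense transcript *1700071M16Rik*. The coding starts of the 2 protein-coding members with the highest transcript GC content and the 2 with the lowest are shown, with every G and C in capitals. *Nkx6-2* (65.7%) encodes a homeobox factor and *Scarf2* (65.2%) a protein of the scavenger receptor family. *Slc2a3* (49.4%) encodes the glucose transporter GLUT3 and *Klhl33* (50.0%) a kelch-like protein. Each line gives the first 150 coding bases of the longest protein-coding transcript (GENCODE, GRCm38), 5′ to 3′, from a first base at position 139582539 of chromosome 7 (*Nkx6-2*, minus strand), 17797379 of chromosome 16 (*Scarf2*, plus), 50897183 of chromosome 14 (*Klhl33*, minus) and 122742390 of chromosome 6 (*Slc2a3*, minus).
Nkx6-2 coding start: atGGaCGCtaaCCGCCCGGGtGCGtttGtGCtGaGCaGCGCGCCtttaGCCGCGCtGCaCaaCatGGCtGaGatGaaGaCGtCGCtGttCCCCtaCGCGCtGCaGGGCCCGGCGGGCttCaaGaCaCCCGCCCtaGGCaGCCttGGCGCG
Scarf2 coding start: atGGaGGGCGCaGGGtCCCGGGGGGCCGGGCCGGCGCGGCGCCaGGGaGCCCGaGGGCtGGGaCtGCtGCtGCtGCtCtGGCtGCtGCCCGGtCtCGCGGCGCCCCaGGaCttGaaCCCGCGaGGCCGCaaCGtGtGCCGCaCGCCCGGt
Klhl33 coding start: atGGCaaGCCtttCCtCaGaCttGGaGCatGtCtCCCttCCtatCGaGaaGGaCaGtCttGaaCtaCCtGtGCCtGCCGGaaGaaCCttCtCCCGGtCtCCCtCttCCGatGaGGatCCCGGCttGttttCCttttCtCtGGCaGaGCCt
Slc2a3 coding start: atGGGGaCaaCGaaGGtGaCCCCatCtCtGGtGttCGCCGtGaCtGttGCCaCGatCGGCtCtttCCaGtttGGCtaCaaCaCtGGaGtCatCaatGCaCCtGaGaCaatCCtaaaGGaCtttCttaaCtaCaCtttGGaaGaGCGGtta
G and C made up 66.7% and 78% of the *Nkx6-2* and *Scarf2* stretches and 54% and 49.3% of those of *Klhl33* and *Slc2a3*. Over whole coding sequences, *H2afx* (69.9%) was richer and *Apoa2* (50.7%) poorer in G and C than any of these genes.

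GC content and the difference between groups moved together over all genes. From the poorest to the richest of the 10 groups, the median difference (C2-/- minus WT) went from 1.09 to -1.71. In the richest group the median library value relative to WT 1 to 3 was -0.58 in WT 4 and -1.48, -1.99 and -1.82 in C2-/- 1 to 3. In the poorest group it was 0.42 in WT 4 and 1.05, 1.31 and 1.23 in C2-/- 1 to 3. The 74 genes, with a median of -3.54, lay below the median of the richest group, which a gap above 2 requires.

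**Figure D4:**
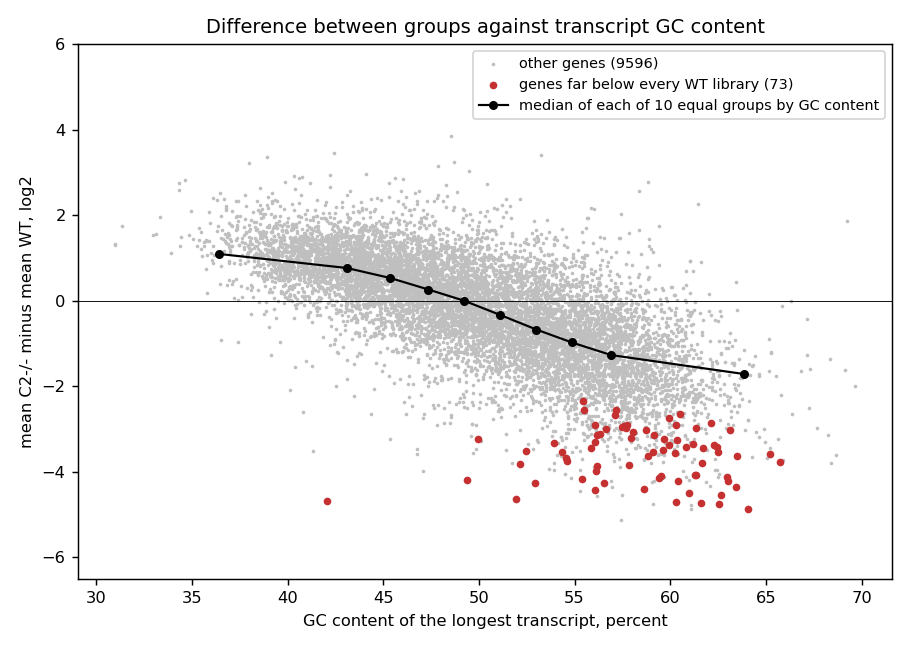
Difference of means (C2-/- minus WT, log2; vertical axis) against the GC content of the longest transcript (percent; horizontal axis), each point a gene with a mean WT level of at least 2 and the black line joining the medians of 10 equal groups by GC content. The line falls from 1.09 to -1.71. The 73 chosen genes with a transcript (red) lie below it, which a gap above 2 requires, and mostly at the GC-rich end.

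When a spline on GC content was removed from each library, the genes stayed low but by less. Their median difference became -1.95, where that of all genes was 0.02, and single genes ranged from -5.54 to -0.91. The C2-/- values still lay below every WT value in 72 of the 73 genes, and in 15.5% of all genes. The rule chose the 73 from these same values before the correction. Both contrasts with all genes were thus partly fixed in advance and were not tested. The gap stayed above 2, at an adjusted mean WT level of at least 2, in 7 of the 73. In order of the corrected gap these were *1700071M16Rik* (2.61), *Wbscr17* (2.33), *Slc2a3* (2.30), *Klhl33* (2.21), *Ccs* (2.19), *Iba57* (2.13) and *Mettl13* (2.11). *Uxs1* and *Slc25a30*, which are not among the 74, also met the rule after the correction.

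The promoters did not stand apart in the same way. In RefSeq, 58 of the 74 genes matched a promoter window of 300 bases (250 before and 50 after the start; GRCm38.p6), with 72 windows in all. Their GC content had a median of 61.7%, against 60.7% over the windows of genes in the table and 52.7% over all windows. The GC box (GGGCGG, on either strand) was found in 48 of the 72 windows (66.7%), in 61.9% of windows of genes in the table and in 35.7% of all windows. The CCAAT box (CCAAT) was in 48.6%, against 37.2% and 37.4%. The E-box CACGTG was in 13.9%, against 10.045% and 7.15%. The TATA box (TATAAA) was in 4.17%, against 7.37% and 13.6%. These are matches of letters and mark no known site. The 4 genes of largest gap with a single window are shown by the 250 bases before the start, with GC boxes in capitals, from chr7:18910405-18910654 (*Ccdc61*, minus strand), chr4:106733665-106733914 (*Fam151a*, plus), chr11:59163746-59163995 (*Iba57*, minus) and chr1:75506453-75506702 (*Obsl1*, minus).
Ccdc61 promoter: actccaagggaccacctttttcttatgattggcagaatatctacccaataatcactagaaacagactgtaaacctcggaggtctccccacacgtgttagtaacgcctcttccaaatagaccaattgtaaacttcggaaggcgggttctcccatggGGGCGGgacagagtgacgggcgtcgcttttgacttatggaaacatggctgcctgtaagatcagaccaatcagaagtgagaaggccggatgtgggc
Fam151a promoter: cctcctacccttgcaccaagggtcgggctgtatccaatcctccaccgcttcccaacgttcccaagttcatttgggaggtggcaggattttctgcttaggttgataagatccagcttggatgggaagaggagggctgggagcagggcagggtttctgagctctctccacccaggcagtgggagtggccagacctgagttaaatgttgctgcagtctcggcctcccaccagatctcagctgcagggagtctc
Iba57 promoter: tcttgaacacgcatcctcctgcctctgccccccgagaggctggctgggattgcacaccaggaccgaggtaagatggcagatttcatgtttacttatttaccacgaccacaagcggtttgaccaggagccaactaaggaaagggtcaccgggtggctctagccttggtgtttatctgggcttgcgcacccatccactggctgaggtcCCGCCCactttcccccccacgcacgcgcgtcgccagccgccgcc
Obsl1 promoter: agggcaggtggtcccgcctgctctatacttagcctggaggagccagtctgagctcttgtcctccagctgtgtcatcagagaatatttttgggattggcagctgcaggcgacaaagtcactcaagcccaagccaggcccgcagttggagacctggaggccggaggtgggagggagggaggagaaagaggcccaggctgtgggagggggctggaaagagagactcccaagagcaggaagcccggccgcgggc
The *Ccdc61* and *Iba57* stretches held 1 GC box each and the other two none, and GC content ran from 49.6% to 62%.

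Among the genes of the fibre, the synapse and axon guidance (13 of the 74), the WT levels had the highest median of any group, at 5.30. *Obsl1* encodes a cytoskeletal adaptor of the M-band region, where thick filaments are cross-linked. Its values were 6.93, 6.74, 6.83 and 6.41 in WT 1 to 4 and 3.44, 3.07 and 3.03 in C2-/- 1 to 3. Both groups were tight (SD 0.22 each), the C2-/- reads numbered 31, 22 and 39, and the difference was -3.55. *Ppapdc3* (now *Plpp7*), a nuclear envelope protein, had 7.38, 7.56, 7.61 and 7.10 in WT and 4.28, 3.96 and 4.59 in C2-/-. In both *Obsl1* and *Ppapdc3* WT 4 was the lowest WT library.

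The guidance genes in this group included both a secreted and a membrane-bound semaphorin. *Sema6c*, a transmembrane class 6 semaphorin, had values of 7.39, 7.34, 7.54 and 6.44 in WT 1 to 4 and 4.26, 2.54 and 3.89 in C2-/- 1 to 3. *Sema3g*, a secreted class 3 semaphorin, had 3.72, 3.46, 3.68 and 3.09 in WT and 0.63, -0.10 and -1.69 in C2-/-, the last from 4, 2 and 1 reads. *Cdh4* encodes R-cadherin, a calcium-dependent adhesion molecule, and had 5.32, 5.63, 4.92 and 5.34 in WT and 2.51, 2.44 and -0.10 in C2-/-. The C2-/- libraries of *Cdh4* thus split, with C2-/- 3 far below the other two (4 reads against 16 and 14).

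The others of this group included *Dok7*, the adaptor that activates the kinase MuSK at the neuromuscular junction, with 229, 262, 242 and 48 reads in WT and 3, 0 and 10 in C2-/-. *Trpm4*, a calcium-activated cation channel, had 5.18, 5.03, 5.14 and 4.10 in WT and 1.71, 1.97 and 1.86 in C2-/-. *Ankrd9* (ankyrin repeats) and *Klhl33* (kelch-like) had mean WT levels of 6.38 and 5.59. *Metrn* (meteorin, a secreted factor of glial differentiation) lay at 4.61. *Scarf2* and *Grin3b*, an NMDA receptor subunit, were low in WT, at 2.38 and 2.14, with at most 2 reads in any C2-/- library.

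Metabolic and mitochondrial genes numbered 14, with WT levels from 2.05 to 8.25 and differences from -4.64 to -2.90. *Slc16a3* encodes MCT4, the lactate exporter of glycolytic fibres, and had the highest WT level of the 74. Its values were 8.06, 8.51, 8.27 and 8.17 in WT 1 to 4 and 6.00, 4.86 and 4.92 in C2-/- 1 to 3, from 186, 77 and 146 reads. *Mief2*, a mitochondrial receptor for the fission factor Drp1, had 6.77, 6.999, 7.13 and 6.57 in WT and 4.54, 3.42 and 3.87 in C2-/-. In both genes C2-/- 1 was the highest C2-/- library by more than 0.5.

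*Iba57* and *Ccs* handle metals. *Iba57*, an assembly factor of mitochondrial iron-sulphur clusters, had 3.75, 3.71, 3.86 and 4.25 in WT and 0.63, -2.42 and 0.19 in C2-/-, from 4, 0 and 5 reads. *Ccs*, the copper chaperone of superoxide dismutase, had 3.08, 2.99, 3.18 and 2.97 in WT and -0.22, -2.42 and -0.95 in C2-/-, from 2, 0 and 2 reads. *Ccs* was one of the most even genes within WT (SD 0.098), and in *Iba57* WT 4 was the highest WT library. Both kept a gap above 2 when C2-/- values were raised to the level of 3 reads (2.58 for *Ccs* and 3.08 for *Iba57*).

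Further carriers and enzymes of this group were *Pcx* (pyruvate carboxylase, which makes oxaloacetate) with a mean WT level of 6.19, *Oplah* (5-oxoprolinase of the glutathione cycle) with 5.84, *Nlrx1* (a mitochondrial NLR protein) with 4.71 and *Slc2a3* with 4.43. *Slc25a29* (a mitochondrial carrier of basic amino acids), *Tst* (the sulphurtransferase rhodanese) and *Nme6* (a nucleoside diphosphate kinase family member) lay between 3.64 and 3.90. *Apoa2* (an apolipoprotein of high-density lipoprotein), *Cyb5rl* (a cytochrome b5 reductase-like protein) and *Fads6* (a fatty acid desaturase family member) lay between 2.05 and 2.67. *Apoa2* and *Fads6* had reads only in C2-/- 1 among the C2-/- libraries, 2 and 1 of them.

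Genes of RNA processing and translation numbered 8. *Rps14* encodes a protein of the small ribosomal subunit and had 7.44, 7.29, 7.38 and 6.92 in WT 1 to 4 and 4.62, 3.47 and 4.26 in C2-/- 1 to 3, a difference of -3.14. Ribosomal protein genes have near-identical processed copies, and how multiply mapped reads were counted is not stated, so this level is uncertain. *Ints1*, the largest subunit of the Integrator complex that cleaves small nuclear and nascent RNAs, had 5.61, 5.50, 5.70 and 4.74 in WT and 2.59, 1.83 and 1.68 in C2-/-.

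*Trmt61a* and *Rn45s* rested on few C2-/- reads. *Trmt61a*, the catalytic subunit of a tRNA methyltransferase, had 1.83, 1.89, 1.72 and 3.31 in WT, so that WT 4 lay well above the others, and 1, 0 and 0 reads in C2-/-. *Rn45s*, the multicopy 45S pre-ribosomal RNA, had 2.39, 3.47, 2.54 and 2.29 in WT and 0, 0 and 3 reads in C2-/-. It lacks a poly(A) tail, so its reads in libraries selected on oligo(dT) are a remnant. *Nol6* (a nucleolar factor of rRNA processing) had a mean WT level of 5.24 and 18, 17 and 24 reads in C2-/-. *Dohh* (which completes hypusine on the factor eIF5A), *Fam98c* (a FAM98 family member) and *Mettl13* (a methyltransferase of eEF1A) had mean WT levels of 4.56, 3.46 and 3.29, and each had 0 reads in C2-/- 2.

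Genes of DNA repair, the cell cycle and transcription numbered 14 and were the lowest in WT, with a median of 2.89. *Nfkbil1*, an NF-kappaB inhibitor-like protein, had the widest gap of the 74, though against C2-/- values that depth alone set. It did not meet the rule with the 3-read floor, quantile normalization, log2(CPM + 1) or the GC correction, or without WT 1 or WT 3. Its values were 2.56, 2.13, 2.57 and 1.26 in WT 1 to 4 (90, 65, 91 and 10 reads), and it had 0 reads in all 3 C2-/- libraries. Its WT libraries had a mean of 4.60 CPM, which was at least 4.10-fold higher than the CPM of 3 reads in the shallowest C2-/- library. *Ccdc61*, a protein of centrioles and basal bodies, had 2.62, 2.48, 2.26 and 1.72 in WT and 0, 0 and 1 reads in C2-/-.

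The Fanconi anaemia core complex, which marks DNA crosslinks for repair, contributed 2 subunits. *Faap100* had 5.05, 5.06, 4.93 and 4.32 in WT and 1.55, -0.10 and 0.81 in C2-/-, a difference of -4.08. *Fance* had 3.01, 2.97, 3.02 and 1.91 in WT and -0.22, -0.10 and -0.47 in C2-/-, a difference of -2.99. In *Fance*, WT 4 lay well below the other WT libraries. *H2afx*, the histone variant phosphorylated at DNA breaks, had 2.62, 2.87, 2.83 and 2.54 in WT and -0.22, -0.10 and -1.69 in C2-/-.

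**Figure D5:**
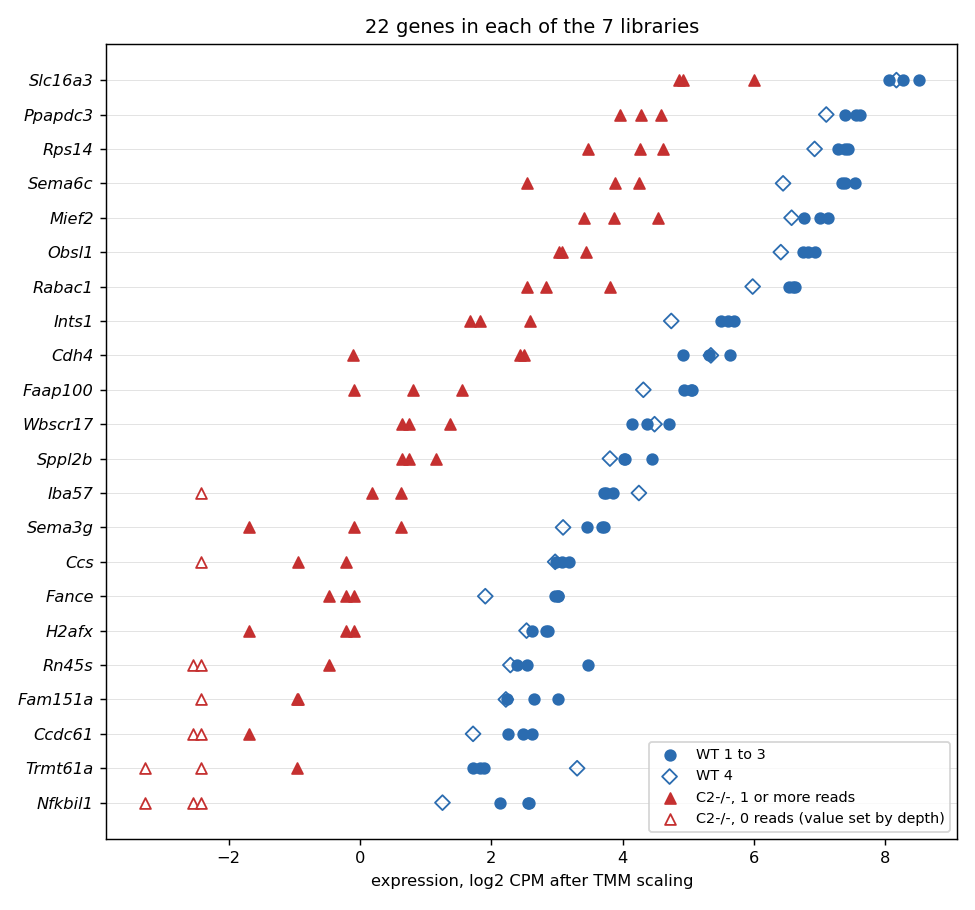
Log2 CPM after TMM scaling (horizontal axis) of 22 of the 74 genes in each of the 7 libraries, ordered by mean WT level: WT 1 to 3 (filled circles), WT 4 (open diamonds) and C2-/- (triangles, open where the library had 0 reads). The groups do not overlap in any gene, by the rule, and WT 4 is often the WT point nearest to C2-/-, as in *Fance* (1.91) and *Nfkbil1* (1.26), but the highest in *Trmt61a* (3.31).

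The other repair and cycle genes were *Fzr1* (the Cdh1 activator of the anaphase-promoting complex, mean WT level 4.55), *Nudt16l1* (a partner of the repair factor 53BP1, 3.03), *Adprhl2* (which removes ADP-ribose from serine, 2.75) and *Wrap53* (a telomerase and Cajal body factor, 2.45). Among transcription factors, *Lbx1*, a homeobox factor of migrating limb muscle precursors, had 5.34, 5.31, 5.52 and 4.33 in WT and 12, 0 and 13 reads in C2-/-. *Nkx6-2*, *Zfp385a*, *Zfp282* (zinc finger proteins) and *Thap3* (a THAP domain protein) had mean WT levels of 3.27, 2.58, 3.27 and 4.54. *Zfp282* had the smallest difference of the 74, at -2.34.

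Genes of the Golgi, the lysosome and membrane traffic numbered 13, with differences from -4.21 to -2.56. *Wbscr17* (now *Galnt17*), a polypeptide GalNAc transferase that starts O-linked glycans, had 4.15, 4.71, 4.36 and 4.49 in WT 1 to 4 and 1.37, 0.75 and 0.63 in C2-/- 1 to 3, from 7, 4 and 7 reads. *Rabac1*, the Rab acceptor PRA1, had 6.59, 6.63, 6.54 and 5.98 in WT and 3.80, 2.54 and 2.84 in C2-/-. *Sppl2b*, an intramembrane protease, had 4.04, 4.02, 4.45 and 3.81 in WT and 1.16, 0.75 and 0.63 in C2-/-. In *Wbscr17* WT 4 lay within the other WT libraries, whereas in *Rabac1* it lay 0.5 or more below them.

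Glycan and lipid anchor enzymes in this group were *B4galt3* (a galactosyltransferase), *St6galnac4* (a sialyltransferase), *Mpdu1* (which lets dolichol-linked mannose be used) and *Gpaa1* (a subunit of the GPI transamidase), with mean WT levels from 2.69 to 4.86. Lysosomal transporters were *Spns1* and the peptide transporter *Abcb9*, at 4.60 and 3.69. *Tmem115* is a Golgi membrane protein (4.24). Transport along microtubules was represented by *Mapk8ip3* (JIP3, which links JNK and kinesin, 5.40), *Klc3* (a kinesin light chain, 2.24) and the microtubule-associated *Eml2* (3.25).

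The remaining 12 genes had mean WT levels from 2.46 to 5.16. They were *Ppp1r16a* (a regulatory subunit of protein phosphatase 1), *Dmwd* (WD repeats), *Abtb1* (ankyrin repeats and a BTB domain), *Ubtd1* (a ubiquitin domain), *Tmco4*, *Fam219a*, *Fam151a*, *AY074887*, *1700001O22Rik*, *2310047M10Rik* and the antisense transcripts *Gm15612* and *1700071M16Rik*. *Fam151a* had 2.65, 2.24, 3.02 and 2.22 in WT 1 to 4 and 1, 0 and 2 reads in C2-/- 1 to 3. *Dmwd* was the most even of the 74 in WT, from 5.14 to 5.18 (SD 0.018), while its C2-/- values were 2.89, -0.10 and 2.46.

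The genes were spread over the genome, and their counts by chromosome were not tested. Of 73 with a position (GRCm38), 9 lay on chromosome 7, which is 12.3% against 7.44% of the genes with a mean WT level of at least 2. Chromosome 11 held 8 and chromosome 4 held 7, and these carry 8.53% and 6.25% of the same genes. There were 0 on chromosomes 8, 13 and X, which carry 5.53%, 3.51% and 2.87% of those genes, and 0 on Y, which carries 4 genes. *Mybpc2* is on chromosome 7, and the only one of the 74 within 10 Mb of it was *Trpm4*, 0.778 Mb away, with the values given above. *Ccdc61*, *Dmwd*, *Eml2* and *Klc3* lay within 513 kb of each other, 25.1 to 25.6 Mb from *Mybpc2*, in a span that held 18 genes with a mean WT level of at least 2.

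Some of the 74 were direct neighbours. Within 100 kb of each other were 7 pairs, made of 14 genes. *Oplah* and *Gpaa1* on chromosome 15 start 113 bases apart and are read in opposite directions, as are *Abtb1* and *Gm15612* on chromosome 6 at 479 bases and *Fzr1* and *Dohh* on chromosome 10 at 6064 bases. The other pairs were *Apoa2* with *B4galt3*, *Nlrx1* with *H2afx*, *Wrap53* with *Mpdu1* and *Dmwd* with *Eml2*. Exons of 25 of the 74 overlap those of another annotated gene, on the opposite strand in 22. Examples are *Nfkbil1* with *Atp6v1g2*, *Klc3* with *Ercc2* and *Fam151a* with *Acot11*. Whether the counting used strand is not stated, so the reads of such partners may not be told apart. How common such pairs and overlaps are over all genes is not given here, so neither count can be read as a trait of the 74.

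None of the 74 was on the marker lists of 9 cell types, but the marker levels moved between the groups. Of 14 fibre markers, 9 were lower in C2-/- by limma and the rest did not pass the threshold, and their summed level was 216749 to 255645 CPM in WT and 113103 to 139951 in C2-/-. *Acta1*, skeletal actin, stood at 15.26 ± 0.07 (SD, n = 4) in WT and 13.24 ± 0.37 (SD, n = 3) in C2-/- (limma adjusted p = 0.000793). Of 10 fibroblast markers 6 were higher and 1 lower, with sums of 591 to 1035 CPM in WT and 1947 to 2523 in C2-/-. Of 5 adipocyte markers 2 were higher, with sums of 559.8 to 1145 and 1910 to 2266 CPM. After the GC correction these counts were 2 lower and 1 higher for fibre, 4 higher for fibroblast and 1 higher for adipocyte markers. Their part in the levels of the 74 genes was not tested.

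Markers of other cells were also examined. Of 11 endothelial markers 5 were lower and 1 higher, of 10 macrophage markers 2 each way, of 8 Schwann cell markers 2 lower, of 8 smooth muscle markers 1 lower, and of 6 satellite cell markers 2 higher and 1 lower. The median difference was -0.59 over the endothelial list (-1.04 to -0.02 over all 13 alternatives, which were other scalings, filters and fits and each library left out in turn) and -1.26 over the Schwann cell list (-1.38 to 0.14). After the GC correction 1 endothelial, 1 Schwann cell and 1 satellite cell marker were past the threshold as lower, and 1 macrophage and 2 smooth muscle markers as higher. Of the red blood cell list only *Alas2* was in the table, and its difference was -1.52. It was past the threshold as lower in the fit used here, and was not after the GC correction, under quantile normalization, with the replicate block, or without WT 1, WT 2 or WT 3. No marker in the table was at 0 in every C2-/- library.

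Genes related to members were followed through lists of complexes and families, chosen with earlier results of these data known. Since the rule chose its genes for being low, the counts and medians of these lists leave out the genes that are among the 74, and ranges beside them are over the alternatives. Besides *Ints1*, the Integrator list had 13 genes in the table, of which 4 were lower in C2-/- and 3 higher, with a median difference of -0.31 (-0.45 to -0.15). *Ints5* was lower by 2.28 on the log2 scale, at 3.66 ± 0.34 (SD, n = 4) in WT and 1.38 ± 0.63 (SD, n = 3) in C2-/- (limma adjusted p = 0.00212), whereas *Ints6* rose by 1.73 (limma adjusted p = 0.00129). After the GC correction 0 of the 13 were past the limma threshold.

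Besides *Faap100* and *Fance*, the Fanconi list had 9 genes, with 2 lower and 1 higher and a median of -0.41, whose sign turned over the 12 alternatives that tested them (-0.78 to 0.44). Under quantile normalization 1 was lower and 4 were higher, after the GC correction 0 were past the limma threshold, and without WT 1, WT 2 or WT 3 in turn 0 were lower. *Fanca* of the core complex was lower and *Fancl*, its ubiquitin ligase, was higher, with differences of -2.52 and 1.73 (limma adjusted p = 0.0205 and 0.00525). Of 10 NF-kappaB factors and inhibitors other than *Nfkbil1*, 1 was lower (0 to 3) and 2 were higher (0 to 3), with a median of 0.14 (-0.14 to 0.34). Without C2-/- 2 there were 0 higher, without WT 4 there were 2 each way and the median was -0.14, and the GC correction left 0 lower and 3 higher.

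Of 22 semaphorins, plexins and neuropilins other than *Sema3g* and *Sema6c*, 6 were lower and 4 higher, with a median of -1.01 (-1.22 to 0.11), while the GC correction left 0 lower and 5 higher. *Plxnd1*, a receptor of class 3 semaphorins, was lower by 2.05 and the coreceptor *Nrp1* higher by 1.27 (limma adjusted p = 0.000607 and 0.000908). *Sema3c* was higher, from 5.97 ± 0.54 (SD, n = 4) to 7.66 ± 0.05 (SD, n = 3; limma adjusted p = 0.00112). Of 9 cadherins and catenins other than *Cdh4*, *Jup* was lower and 0 were higher, with a median of 0.03 (-0.09 to 0.53). There were 1 lower and 2 higher with median centring, with quantile normalization and without C2-/- 3, 0 lower and 1 higher after the GC correction, and 2 lower and 1 higher without WT 4.

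Of 9 GalNAc transferases other than *Wbscr17*, 4 were past the threshold, all lower, with a median of -0.67 (-1.09 to -0.32), and 3 were lower and 1 higher after the GC correction. Of 8 genes of junctophilins and the triad, where calcium release is coupled to the membrane, 5 were lower and 2 higher, with a median of -1.53 (-1.68 to -0.17). *Jph2*, which ties the sarcoplasmic reticulum to the T-tubule, was lower by 3.01 and *Trdn*, triadin, higher by 2.18 (limma adjusted p = 0.000231 and 0.0127). After the GC correction 2 were past the threshold, both lower. Of 14 subunits of protein phosphatase 2A, 4 were lower and 4 higher, with a median of 0.11 (0.03 to 0.27), and 3 were lower and 1 higher after the GC correction.

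How firmly a gene belongs to the group depended on the values used. When the deposited values were replaced in turn by median-centred, quantile-normalized, log2(CPM + 1), 3-read-floored and GC-corrected values, *Ccs*, *Iba57*, *Wbscr17*, *Mettl13* and *Klhl33* met the rule under all 5. Their GC-corrected differences ran from -3.28 to -2.92.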

How the data were processed

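RNA from TA muscle of 4 WT and 3 C2-/- mice was sequenced by the study on DNA nanoballs. The authors aligned reads to GRCm38.p6 with HISAT, counted them per gene with featureCounts 1.5.2, scaled libraries by edgeR's TMM and deposited log2 values of 12239 genes. The gene filter, strand and multiply mapped reads are not stated. A second deposited table holds the authors' limma/voom fold changes and p-values and was not used. The design text gives 4 animals per group, and 3 C2-/- samples were analysed here.

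The members and lists were chosen with earlier results of these data known. Each value equalled the log2 of a whole read number plus 0.5, scaled to library size, so reads were recovered (100.0% whole within 0.0001). Of the 74 genes 73 were named. Values by library are given for those among the 12 of largest gap, the 8 of highest WT level and those on a list, and for some others. 1 gene and its values, and 1 list, are not reported here. Background and lists used limma 3.58.1 with a trend, R 4.3.3, two-sided, Benjamini-Hochberg over all genes, adjusted p under 0.05 and fold above 1.5, checked on simulated data. Lists of relatives leave out the 74 genes, a choice made after the values were seen. P-values set the difference of means against the variance between these samples, which limma moderates over all genes. GC content came from 1 GENCODE transcript per gene (99.5% matched). The correction removed a natural spline with 5 degrees of freedom from each library. Positions and promoters came from RefSeq (GRCm38.p6).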

Additional observations from a re-analysis of the deposited data

Results flagged for a closer look

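Among the 4 WT libraries, 25 measures were searched for a library far from the others (Dixon's 95% criterion, which chance passes in about 1 of 20 groups). The search covered 23 of the 74 genes, the reads in the table and the genes at 0 reads, and 5 stood out, all through WT 4. The 23 genes were chosen in part by their lowest WT value, so the number of genes that stood out cannot be read against chance. *Fance* was 1.91 in WT 4 against 2.97 to 3.02 in WT 1 to 3, and *Rabac1* was 5.98 against 6.54 to 6.63. *Trmt61a* went the other way, at 3.31 against 1.72 to 1.89. WT 4 had 4683853 reads in the table against 14929214 to 15464499, and 75 genes at 0 reads against 1 to 3.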

How the results depend on the processing

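The number of genes meeting the rule moved with most choices. It was 74 as reported, 233 with a gap above 1.5 and 19 with a gap above 2.5, 46 with each library centred on its median, 48 after quantile normalization (45 of the 74 among them), 28 with log2(CPM + 1) and 9 after the GC correction (7 of the 74). It stayed within 1.5 times for a mean WT level of at least 1 or 3 (91 and 55) and with C2-/- values raised to 3 reads (56). Leaving out 1 library gave 74 to 255 genes: 255 without WT 4 (73 of the 74 among them), 246 without C2-/- 1 and 140 without C2-/- 3.

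The median difference over the 74 genes, -3.54, became -3.05 after quantile normalization, -2.75 with log2(CPM + 1), -2.95 with the 3-read floor and -1.95 after the GC correction, and ran from -3.88 to -3.17 with 1 library left out. Across all genes 5528 were past the limma threshold, 44.7% of them higher, and 2508 after the GC correction, 59.6% of them higher (54.0% with median centring). Leaving out 1 library gave 4095 to 6136. With the replicate block the count was 5929. The replicate numbers showed no pairing (correlations of deviations 0.05, -0.06 and -0.05). C2-/- depth limits the genes with few reads, whose values at 0 reads are set by depth.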
